A study of Mus musculus with 11 samples.

Results

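The EGF receptor and the ligands that activate it were followed in the rectal mucosa of mice given tamoxifen to delete Itga6, the gene for integrin α6, in intestinal epithelial cells. The set named 8 genes (Areg, Ereg, Hbegf, Tgfa, Epgn, Btc, Egf and the receptor gene Egfr), chosen as the transcript clusters whose platform-annotation symbol was exactly one of these names. A cluster was found for 7 of the 8, 6 ligands and Egfr, each with 1 transcript cluster, among 19944 genes tested, and Areg is not analysed here. Mice labelled α6ΔIEC-TAM and given tamoxifen form the mutant tamoxifen group (n = 4, 1 male). Wild-type mice given tamoxifen form the control tamoxifen group (n = 3, 2 male), and α6ΔIEC-TAM mice given NaCl form the mutant NaCl group (n = 4, 1 male). Gavage began at 8 weeks of age and ran over 5 days, on alternate days, with tamoxifen at 10 mg per day suspended in 0.9% NaCl, and the mucosa was collected 15 days after the first gavage, at 10 weeks of age. The mutant NaCl mice share the mutant genotype with the mutant tamoxifen mice, and the control mice share tamoxifen with them. The driver of the recombinase, and whether controls were littermates, is not given in the sources used here.

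EGF receptor ligands are made as membrane-anchored precursors, and proteases of the ADAM family release the active growth factor from the cell surface. A released ligand binds the receptor on the same cell or on a neighbour, the receptor pairs with itself or with another member of the ERBB family, and its kinase signals through RAS to the kinase ERK and through PI3-kinase to AKT. In the gut this pathway is known for driving crypt cell proliferation and the closure of epithelial wounds, and several of its ligands and feedback inhibitors are themselves ERK target genes.

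Each array held RNA of 1 mouse, and the array medians lay between 7.29 and 7.35 on the log2 scale of the deposited values. Levels are given on that scale for 1 gene across groups, and they are not compared between genes. Itga6 itself did not read lower in the group in which its deletion was to be induced. It read 11.75, 11.93, 11.84 and 11.77 on the arrays labelled mutant tamoxifen, 11.15, 11.52 and 11.49 on the control tamoxifen arrays, and 11.39, 11.28, 11.49 and 11.47 on the mutant NaCl arrays. The 4 arrays labelled mutant tamoxifen were the highest of the 11, by 0.42 against control (adjusted p = 0.00949 with limma and Benjamini-Hochberg adjustment over all genes, as for every adjusted p here). The signal goes against the label, and whether the probes lie in the deleted part of the gene is not known, so every direction below is that of groups as labelled.

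Against control tamoxifen, 5 of the 7 measured genes were higher in the mice labelled mutant tamoxifen: Hbegf 3.06-fold, Ereg 2.28-fold, Egfr 1.56-fold, Epgn 1.34-fold and Tgfa 1.20-fold. Egf was 1.29-fold lower, and Btc did not pass the threshold of 0.05 on adjusted p. Against mutant NaCl the same 5 genes were higher, and Egf and Btc did not pass. Over all genes tested, 12.9% were called higher and 11.8% lower against control, and 12.5% were called higher against mutant NaCl, 24.6% and 23.2% in either direction. The median difference of the 7 genes was 0.42 against control and 0.37 against mutant NaCl, beside medians of -0.02 and -0.01 over all genes. Both comparisons use the same 4 mutant tamoxifen arrays, so their results are given side by side and are not independent of each other. The tissue is a mixture of cells, and in such samples fewer cells of a type and less RNA per cell cannot be told apart.

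**Figure D1:**
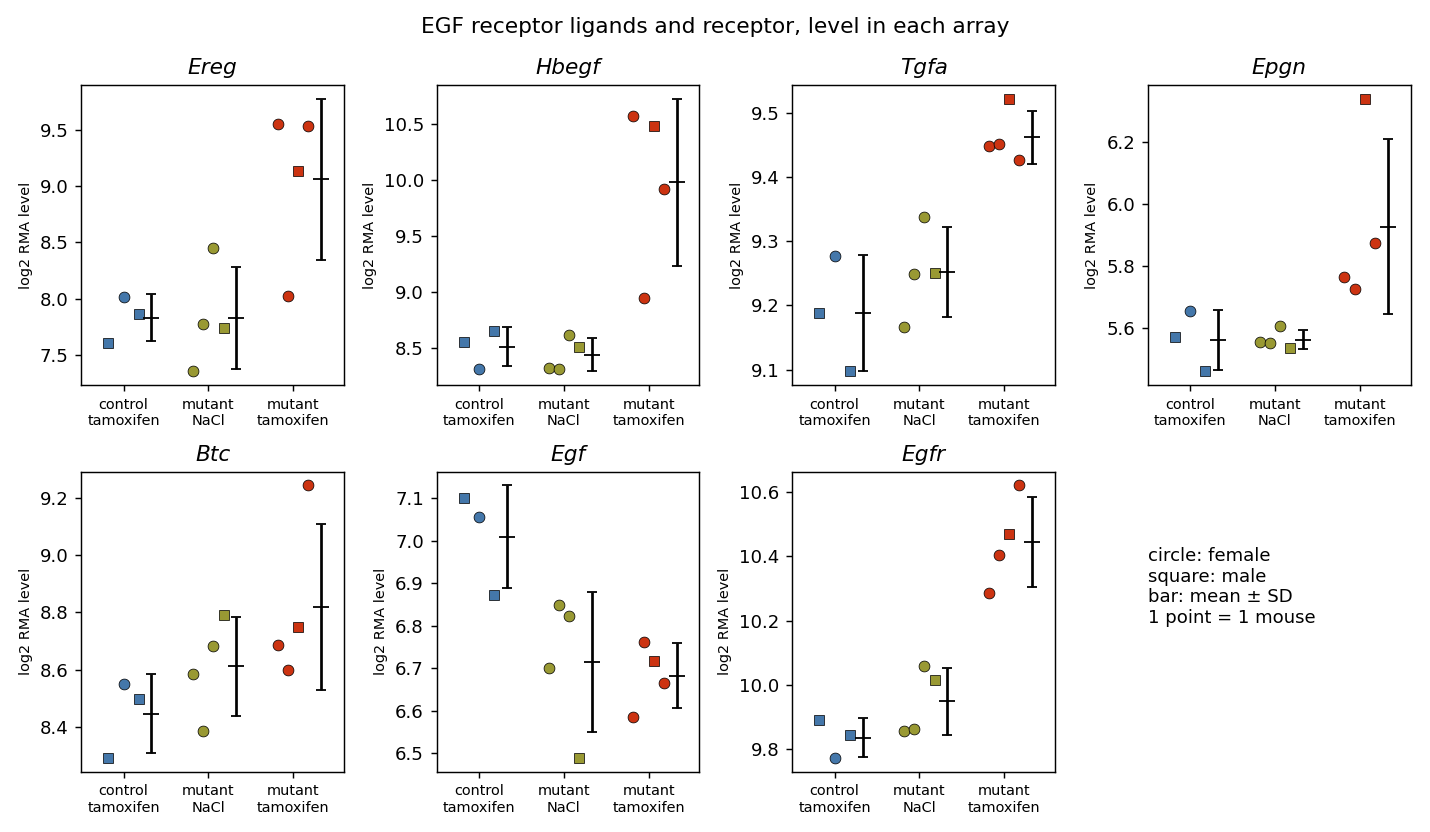
Log2 level of each of the 7 measured genes on each of the 11 arrays, by group, with circles for females, squares for males and a bar for the mean and SD of the group. Hbegf and Ereg read lower on mutant tamoxifen replicate 2 (8.95 and 8.02) than on the other 3 arrays of that group, while Egfr does not.

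Hbegf encodes heparin-binding EGF-like growth factor, a ligand that binds both EGFR and ERBB4 and is made early in wounds. It read 10.57, 8.95, 10.48 and 9.92 on the arrays labelled mutant tamoxifen. The control tamoxifen arrays read 8.56, 8.32 and 8.66, and the mutant NaCl arrays 8.33, 8.31, 8.62 and 8.51. All 4 mutant tamoxifen arrays were above all 7 others, with replicate 2 the lowest of its group. The difference was 1.61 against control (SE 0.312, 95% interval 0.92 to 2.30, adjusted p = 0.00453) and 1.53 against mutant NaCl (SE 0.271, interval 0.94 to 2.13, adjusted p = 0.00281). It stayed past the threshold without any single array, and without mutant tamoxifen replicate 2 it was 1.88 and 1.86. Among female arrays alone, where the control group has 1 array that is assumed to vary like the others, it was 1.49 against control and no longer passed (adjusted p = 0.115).

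Ereg encodes epiregulin, a ligand of EGFR and ERBB4 with low affinity and long-lasting signalling. The arrays labelled mutant tamoxifen read 9.55, 8.02, 9.13 and 9.53. Control tamoxifen arrays read 7.61, 8.02 and 7.87, and mutant NaCl arrays read 7.36, 7.78, 8.45 and 7.74. Thus 3 of the 4 mutant tamoxifen arrays lay well above every other array, and replicate 2 lay at the level of the highest control array and below mutant NaCl replicate 3. The difference was 1.19 against control (SE 0.375, interval 0.36 to 2.02, adjusted p = 0.0413) and 1.23 against mutant NaCl (SE 0.326, interval 0.51 to 1.95, adjusted p = 0.0204).

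The call for Ereg depended on single arrays. Against control it was lost without mutant tamoxifen replicate 1 (1.06, adjusted p = 0.0798), replicate 3 (1.07, 0.167) or replicate 4 (1.06, 0.0741), and without control replicate 1 (1.10, 0.102), 2 (1.31, 0.114) or 3 (1.22, 0.0684). It was also lost there without mutant NaCl replicate 2 (1.18, 0.0601) or 4 (1.19, 0.0586), which enter the shared estimate of the spread. Against mutant NaCl it was lost without mutant tamoxifen replicate 1 (1.07, 0.0581), 3 (1.16, 0.0708) or 4 (1.07, 0.0549), and without mutant NaCl replicate 1 (1.06, 0.0555), 2 (1.20, 0.0529) or 4 (1.22, 0.0520). Without mutant tamoxifen replicate 2, the low array of its group, Ereg was higher by 1.48 against control (adjusted p = 0.00287) and by 1.60 against mutant NaCl (adjusted p = 0.00123). Fits with only the arrays compared (1.19, 0.0690), robust variances (1.19, 0.0880) or array weights (1.02, 0.0664), and female arrays alone (1.02, 0.354), also lost the call against control. Robust variances (1.23, 0.0522) and female arrays alone (1.17, 0.109) lost it against mutant NaCl. The size of the difference therefore lay between 1.02 and 1.60 over these fits, and the spread among the 4 mice labelled mutant tamoxifen (SD 0.717) was wider than among the control (0.206) or mutant NaCl mice (0.453).

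Tgfa encodes TGF-α, the ligand of EGFR made by many epithelia, the colonic one among them. It read 9.45, 9.45, 9.52 and 9.43 on the arrays labelled mutant tamoxifen, 9.19, 9.28 and 9.10 on the control arrays, and 9.17, 9.25, 9.34 and 9.25 on the mutant NaCl arrays. The mutant tamoxifen arrays spanned less than those of either other group and did not overlap with them, including replicate 2. The difference was small, 0.27 against control (SE 0.0652, interval 0.12 to 0.41, adjusted p = 0.0136) and 0.21 against mutant NaCl (SE 0.0566, interval 0.09 to 0.34, adjusted p = 0.0217). Without mutant tamoxifen replicate 3, the male of its group, it did not pass against control (0.21, adjusted p = 0.101) or against mutant NaCl (0.17, 0.0861). The call against mutant NaCl was also lost without mutant NaCl replicate 1 (0.18, 0.0627) or 2 (0.21, 0.0540). Among female arrays alone it was 0.16 against control (0.303) and 0.19 against mutant NaCl (0.0785).

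Epgn encodes epigen, a broadly acting ligand of low affinity. It read 5.76, 5.73, 6.34 and 5.87 on the arrays labelled mutant tamoxifen, 5.57, 5.65 and 5.46 on control arrays, and 5.55, 5.55, 5.61 and 5.53 on mutant NaCl arrays. The 4 mutant tamoxifen arrays were above the other 7, with replicate 3 standing highest. By its mean level Epgn was among the lowest 25% of genes, so these are readings of a dim gene. The difference was 0.42 against control (SE 0.122, interval 0.15 to 0.69, adjusted p = 0.0286) and 0.37 against mutant NaCl (SE 0.106, interval 0.13 to 0.60, adjusted p = 0.0300). Much of its size came from replicate 3: without it the difference was 0.17 against control (adjusted p = 0.104) and 0.21 against mutant NaCl (0.0231). The call against control was also lost without control replicate 1 (0.41, 0.0707) or 3 (0.36, 0.0734), with only the arrays compared (0.46, 0.0525) and among female arrays alone (0.13, 0.298). The call against mutant NaCl was lost without mutant tamoxifen replicate 4 (0.37, 0.0553) and without mutant NaCl replicate 1 (0.37, 0.0545), 2 (0.37, 0.0620) or 4 (0.30, 0.101).

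Btc encodes betacellulin, which binds EGFR and ERBB4. It read 8.69, 8.60, 8.75 and 9.24 on the arrays labelled mutant tamoxifen, 8.29, 8.55 and 8.50 on control arrays, and 8.58, 8.38, 8.68 and 8.79 on mutant NaCl arrays. The mutant tamoxifen arrays were all above the control arrays and overlapped with mutant NaCl. The difference of 0.37 against control (interval 0.02 to 0.73) did not pass (adjusted p = 0.116), nor did 0.21 against mutant NaCl (interval -0.10 to 0.52, adjusted p = 0.335). Btc passed in none of the 24 other settings tried.

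Egf encodes epidermal growth factor itself, made mainly by salivary glands and kidney. It read 6.59, 6.76, 6.72 and 6.67 on the arrays labelled mutant tamoxifen, 7.10, 7.06 and 6.87 on control arrays, and 6.70, 6.85, 6.82 and 6.49 on mutant NaCl arrays. Here the control arrays stood above both mutant groups, and the mutant groups overlapped with each other. Egf fell by 0.37 against control (SE 0.0903, interval -0.57 to -0.17, adjusted p = 0.0135), and differed by -0.03 from mutant NaCl (interval -0.21 to 0.14, adjusted p = 0.819). Between mutant NaCl and control, which differ in both genotype and treatment, it differed by -0.34 (interval -0.54 to -0.14) without passing over all genes (adjusted p = 0.516). The call against control was lost without control replicate 2 (-0.40, adjusted p = 0.0551) and among female arrays alone (-0.38, 0.0588).

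Egfr encodes the receptor to which all 6 measured ligands bind. It read 10.29, 10.40, 10.47 and 10.62 on the arrays labelled mutant tamoxifen, 9.89, 9.77 and 9.85 on control arrays, and 9.86, 9.86, 10.06 and 10.01 on mutant NaCl arrays. The lowest mutant tamoxifen array was above the highest of the 7 others, and replicate 2 was not the lowest. The difference was 0.64 against control (SE 0.0844, interval 0.45 to 0.82, adjusted p = 0.000744) and 0.50 against mutant NaCl (SE 0.0733, interval 0.33 to 0.66, adjusted p = 0.00112). It passed without any single array. Among female arrays alone it was 0.66 against control, where the control group has 1 array, and 0.51 against mutant NaCl.

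**Figure D2:**
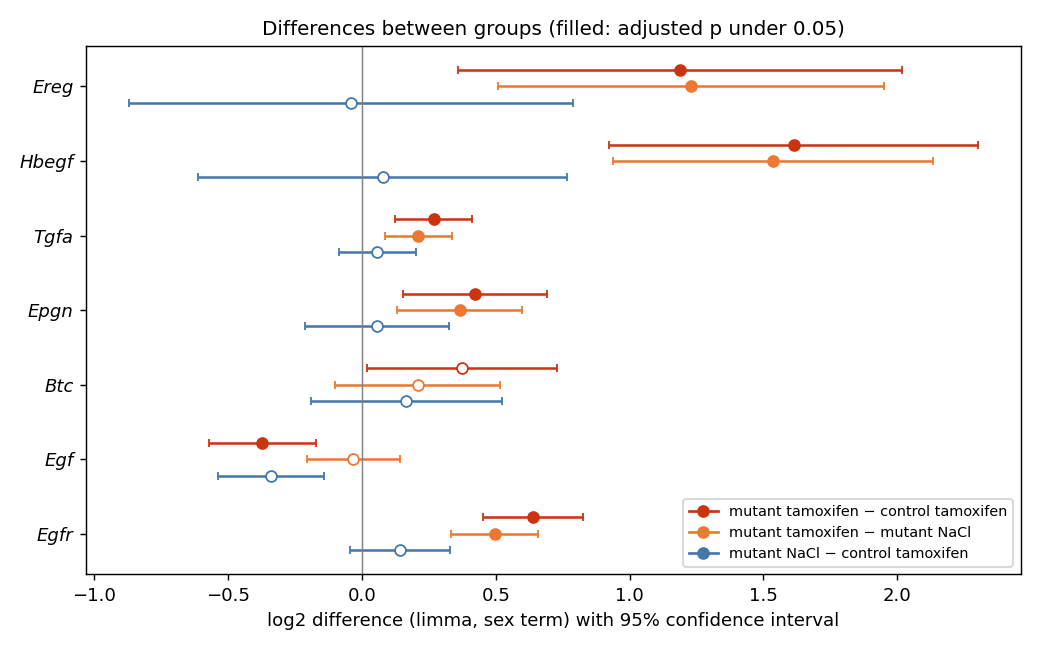
Log2 difference of each measured gene in each of the 3 comparisons, with its 95% interval from the limma fit and filled points for an adjusted p under 0.05. The intervals for Hbegf and Ereg are the widest, and in mutant NaCl against control tamoxifen no gene is called.

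In array overlap, 6 of the 7 genes had all mutant tamoxifen arrays above all control arrays, and Egf had all of them below. The shares over all genes were 17.3% above and 20.1% below, 37.4% in all. Against mutant NaCl, 4 of 7 (Hbegf, Tgfa, Epgn and Egfr) had all mutant tamoxifen arrays above, beside 14.2% of all genes (26.8% in either direction), and 3 overlapped. In the order of group means, mutant tamoxifen was the highest group for every measured gene but Egf. For Hbegf, Ereg, Tgfa, Epgn and Egfr the mutant NaCl and control means followed, with no call between them. The SDs of the mutant tamoxifen arrays around those means were 0.745 for Hbegf, 0.0417 for Tgfa, 0.283 for Epgn, 0.289 for Btc, 0.0760 for Egf and 0.139 for Egfr.

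Mutant NaCl against control tamoxifen gave no call among the 7 genes. Their differences were 0.08 for Hbegf, -0.04 for Ereg, 0.06 for Tgfa, 0.06 for Epgn, 0.17 for Btc and 0.14 for Egfr, beside -0.34 for Egf. The sign for Hbegf rested on the sex term: its mean was 8.44 on mutant NaCl and 8.51 on control arrays, and without that term it differed by -0.07. The limma fit called 0 of 19944 genes in this comparison (0%), while 1625 had an unadjusted p under 0.05. The intervals remain wide for Ereg (-0.87 to 0.79), and narrower for Egfr (-0.04 to 0.33). Egf was the only measured gene whose arrays did not overlap here, with all mutant NaCl arrays below all control arrays, beside 5.32% of all genes, while 2.82% had them above (8.14% in all).

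The sequences just upstream of the start sites are shown for 4 of the called genes, Epgn, Tgfa and Egfr, which were higher, and Egf, which was lower against control, so that the letters can be set side by side. They come from RefSeq on the build GRCm38.p6, 250 bases before the annotated start, 5′ to 3′ in the direction of transcription. Capitals mark matches on either strand to TGACG, the core of the site bound by CREB-type factors, and GGAA, the core bound by ETS factors. TGANTCA, the site of AP-1 factors such as FOS and JUN, was searched as well.
Epgn (chr5:91027267-91027516, plus strand): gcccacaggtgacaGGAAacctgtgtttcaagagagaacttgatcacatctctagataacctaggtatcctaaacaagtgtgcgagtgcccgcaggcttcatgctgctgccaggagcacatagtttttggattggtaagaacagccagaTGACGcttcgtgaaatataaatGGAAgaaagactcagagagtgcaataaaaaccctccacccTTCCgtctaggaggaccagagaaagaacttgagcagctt
Tgfa (chr6:86194972-86195221, plus strand): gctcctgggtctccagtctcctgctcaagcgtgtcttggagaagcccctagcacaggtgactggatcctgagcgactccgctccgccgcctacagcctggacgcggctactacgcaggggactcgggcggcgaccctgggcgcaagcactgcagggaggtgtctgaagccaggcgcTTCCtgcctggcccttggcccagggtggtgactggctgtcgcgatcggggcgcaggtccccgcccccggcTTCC
Egfr (chr11:16751953-16752202, plus strand): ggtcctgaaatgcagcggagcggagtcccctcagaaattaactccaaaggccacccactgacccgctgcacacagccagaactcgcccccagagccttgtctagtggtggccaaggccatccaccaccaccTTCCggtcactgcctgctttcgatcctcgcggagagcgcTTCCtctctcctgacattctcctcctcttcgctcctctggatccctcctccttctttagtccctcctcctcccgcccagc
Egf (chr3:129755323-129755572, minus strand): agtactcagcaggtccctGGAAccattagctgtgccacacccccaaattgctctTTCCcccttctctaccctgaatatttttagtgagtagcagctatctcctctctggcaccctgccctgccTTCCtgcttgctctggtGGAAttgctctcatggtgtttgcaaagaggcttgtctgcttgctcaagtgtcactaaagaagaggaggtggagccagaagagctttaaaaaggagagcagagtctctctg

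TGACG was found once in the Epgn window and in none of the other 3, and it occurs in 17.8% of the 32851 RefSeq promoter windows of this length. GGAA was found in all 4, with 3 matches for Epgn, 2 for Tgfa, 2 for Egfr and 4 for Egf, and it occurs in 93.4% of all windows. RefSeq gives Egf another start on chromosome 3, whose window (chr3:129725087-129725336, not printed) held 3 matches to GGAA and none to the other motifs. TGANTCA was in none of the 4, beside 6.75% of all windows, and no matches of different motifs overlapped. Among these 4 windows the letters did not separate Epgn, Tgfa and Egfr from Egf. No window was examined for Hbegf or Ereg, whose differences were the largest of the set, so the comparison does not cover them. A match is a run of letters, not a measured binding site.

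The rest of the pathway was followed in 5 lists with 72 measured genes. Against control tamoxifen 19 of the 72 were higher and 9 lower, against mutant NaCl 22 were higher and 5 lower, and 0 passed between mutant NaCl and control. Among all genes tested, 12.9% were called higher and 11.8% lower against control, and 12.5% and 10.7% against mutant NaCl. These shares stand beside the counts of each list below. From each list at most the 4 genes with the smallest p against control are named. The other ERBB receptors and their ligands had 1 of 7 higher and 2 lower against control, and 1 higher against mutant NaCl, with median differences of -0.03 and -0.01. Nrg1, for neuregulin 1, a ligand of ERBB3 and ERBB4, read 9.36, 9.22, 9.61 and 9.72 on the arrays labelled mutant tamoxifen. It read 7.89, 8.16 and 8.08 on control arrays and 7.93, 8.14, 8.51 and 8.20 on mutant NaCl arrays. The groups were well apart, and Nrg1 was 2.71-fold higher against control (1.44, adjusted p = 0.000303) and 2.44-fold against mutant NaCl (1.29, adjusted p = 0.000192).

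Erbb2 encodes the partner receptor that binds no ligand of its own, and Erbb3 a receptor with little kinase activity that binds neuregulins. Erbb2 fell by 0.43 (adjusted p = 0.0178) and Erbb3 fell by 0.39 (0.0206) against control. Without mutant tamoxifen replicate 3 neither passed (-0.38, 0.104 for Erbb2 and -0.36, 0.105 for Erbb3), and without control replicate 2 Erbb2 did not (-0.47, 0.0602). With only the arrays compared neither passed (-0.43, 0.0527 and -0.36, 0.0558), and with the mean level of stratified squamous markers as a covariate Erbb3 did not (-0.34, 0.0512). Against mutant NaCl they differed by -0.24 (0.0986) and -0.18 (0.189), and Erbb2 passed there with only the arrays compared (-0.24, 0.0346) or without control replicate 1 (-0.24, 0.0267). Nrg4, a ligand of ERBB4, differed by 0.08 and did not pass (0.306).

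Of 10 genes for ligand shedding, 3 were higher and 1 lower against control, and 5 were higher and 1 lower against mutant NaCl. Adam10 encodes a sheddase of EGF and betacellulin. It was higher by 0.37 (adjusted p = 0.000804) and 0.29 (0.00112) in the 2 comparisons. Rhbdf2 encodes iRhom2, which escorts ADAM17 to the cell surface, and it was higher by 0.41 (0.00259) and 0.43 (0.000915). Adam17 encodes the main sheddase of TGF-α, epiregulin and HB-EGF. It was higher by 0.33 (0.0117) and 0.29 (0.0112), and the call against control was lost without mutant tamoxifen replicate 3 (0.29, 0.0804) or control replicate 2 (0.31, 0.0754). Timp3 encodes an inhibitor of ADAM17 and fell by 0.49 (0.0210) and by 0.58 (0.00443). Its call against control was lost without mutant tamoxifen replicate 3 (-0.34, 0.149), control replicate 1 (-0.47, 0.0535) or control replicate 2 (-0.44, 0.124).

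Adaptors and the kinase relay had 5 of 17 measured genes higher and 2 lower against control. Against mutant NaCl 4 were higher and 2 lower. Gab1, a docking protein that recruits PI3-kinase to the receptor, fell by 0.65 (adjusted p = 0.000556) against control and by 0.49 (0.000995) against mutant NaCl. Pik3r1, a regulatory subunit of PI3-kinase, fell by 0.28 (0.00619) against control and by 0.34 against mutant NaCl. Akt1, the kinase below PI3-kinase, was higher by 0.26 (0.00388) and 0.27. Nras, a RAS protein, was higher by 0.35 (0.00742) and 0.30. Thus the named genes of the PI3-kinase arm did not all move one way.

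Inhibitors of the receptor and of its pathway had 2 of 16 higher and 3 lower against control, and 2 higher and 2 lower against mutant NaCl. The shares over all genes were 12.9% and 11.8%, and 12.5% and 10.7%, so these counts are not read as a feature of the list. Spry4, a feedback inhibitor of RAS signalling, was higher by 0.79 (adjusted p = 0.00902) and 0.69 (0.00875). Cbl, a ubiquitin ligase that sends the receptor to degradation, fell by 0.26 (0.0101) and by 0.23. Lrig3, of a family of membrane proteins that act on ERBB receptors, fell by 0.28 (0.0101) and by 0.44. Rasa1, which switches RAS off, was higher by 0.25 (0.0190) against control and differed by 0.13 from mutant NaCl (0.140). Without mutant tamoxifen replicate 3 none of these 4 passed against control (0.74, 0.0599 for Spry4; -0.25, 0.0559 for Cbl; -0.27, 0.0572 for Lrig3; 0.25, 0.0767 for Rasa1). Rasa1 was also lost without control replicate 2 (0.21, 0.136).

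**Figure D3:**
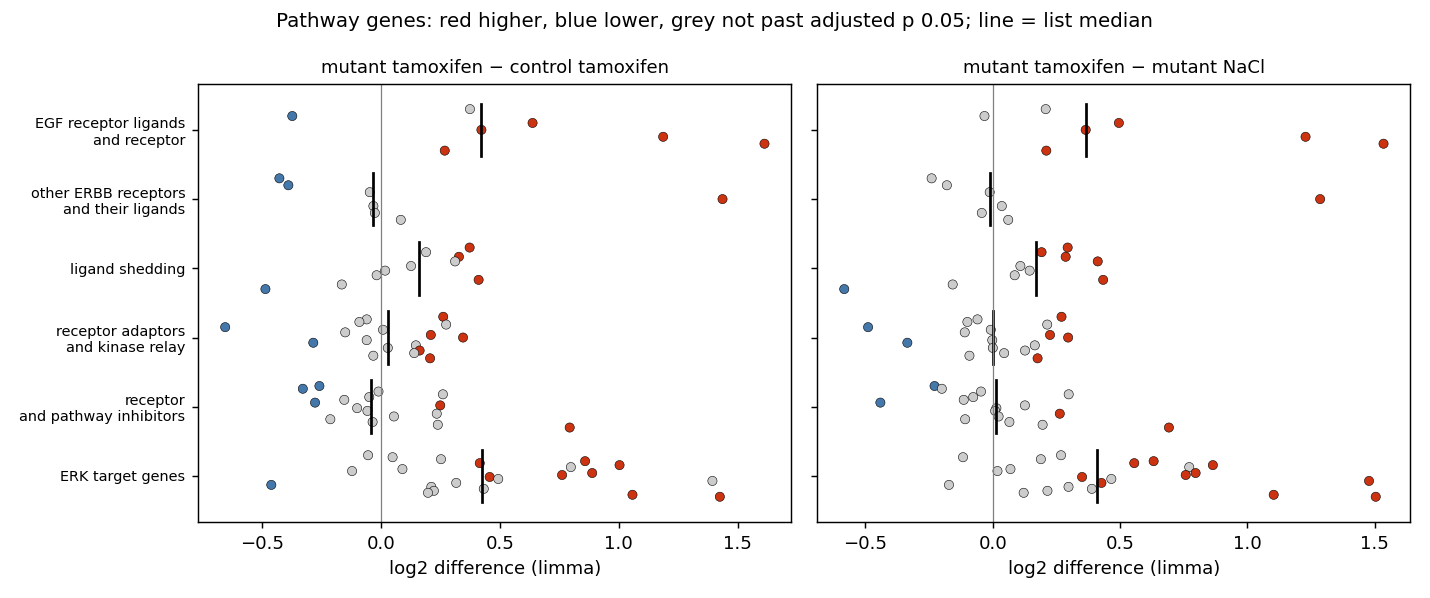
Log2 difference against control tamoxifen (left) and against mutant NaCl (right) for every measured gene of the EGF receptor set and of the 5 pathway lists, 1 point per gene, in red where called higher, blue where called lower and grey otherwise, with a line at the list median. The medians of the ERK target genes (0.42 and 0.41) lie to the right of 0, and those of the inhibitors (-0.04 and 0.01) lie near it.

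Of the 22 measured ERK target genes, 8 were higher and 1 lower against control and 10 were higher and 0 lower against mutant NaCl, with median differences of 0.42 and 0.41. Dusp6, the phosphatase that ERK signalling induces to switch ERK off, was 1.00 higher (adjusted p = 0.00245) and 0.86 higher (0.00250). Emp1, an epithelial membrane protein, was higher by 0.89 (0.000965) and 0.80. Etv4, a transcription factor of the ETS family, was higher by 0.76 (0.000673) and 0.76 (0.000258). Hmga2, a chromatin protein, fell by 0.46 (0.00300) against control and differed by -0.17 from mutant NaCl (0.112).

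The mean level of the 22 ERK target genes was 9.39, 8.75, 9.25 and 9.23 on the arrays labelled mutant tamoxifen. It was 8.68, 8.65 and 8.74 on control arrays and 8.59, 8.63, 8.77 and 8.64 on mutant NaCl arrays. By this mean, replicate 2 of the mutant tamoxifen group read at the level of the other groups, as it did for Ereg. Single genes of the list differed. On replicate 2 Dusp6 (10.49), Emp1 (12.70) and Etv4 (7.69) read above every control and mutant NaCl array (highest 10.32, 12.375 and 7.18). Fosb (8.17) and Egr1 (7.76) did not, beside highest readings of 8.68 and 8.47 there. Replicate 2 was the lowest of its 4 arrays for 16 of the 22 ERK target genes (72.7%), beside 28.0% of all genes, and for 4 of the 7 EGF receptor genes measured. The low reading was not particular to these genes. The mean level of the neutrophil markers was also lowest on replicate 2 (7.34, beside 7.79, 7.65 and 7.91 on replicates 1, 3 and 4). Without replicate 2, 13 ERK target genes were higher against control and 14 against mutant NaCl. Among female arrays alone, 3 and 7 were. Of the 19 named pathway genes called against control, 14 lost the call among female arrays alone, with adjusted p from 0.0523 to 0.226. Nrg1, Adam10, Gab1, Etv4 and Dusp6 kept it. Against mutant NaCl 3 of 15 lost it (Adam17, Nras and Spry4, 0.0585 to 0.0680).

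**Figure D4:**
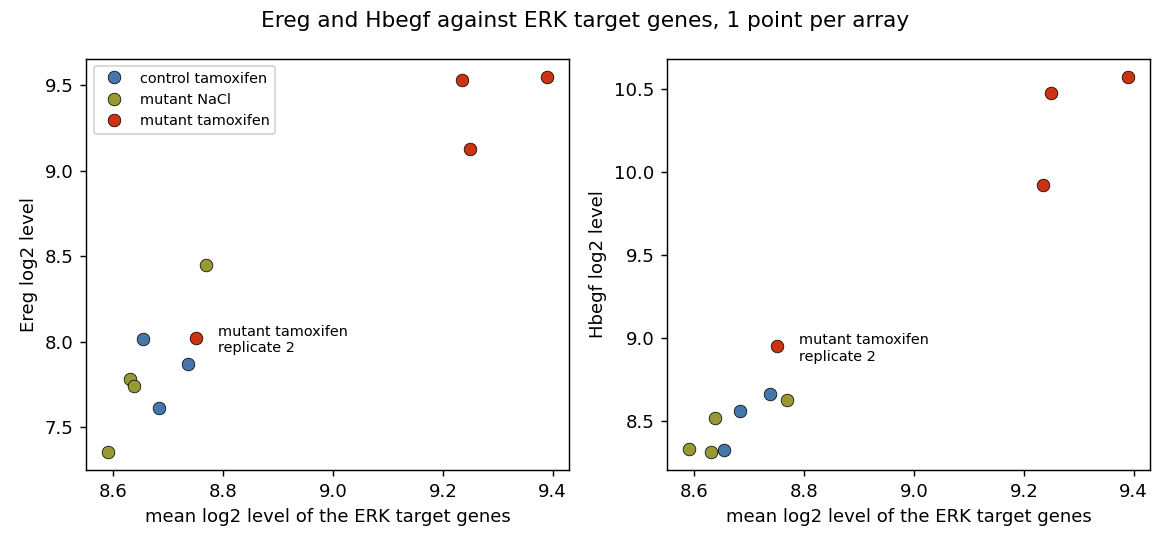
Log2 level of Ereg (left) and Hbegf (right) on the vertical axis against the mean log2 level of the 22 measured ERK target genes on the same array, 1 point per array, coloured by group. Mutant tamoxifen replicate 2 (8.75) lies within the range of the other groups on the horizontal axis, and the other 3 arrays of its group lie at 9.23 to 9.39.

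Ereg and Hbegf were the only measured genes of the set whose level spanned at least 1 over the 11 arrays (2.19 and 2.26), and the genes with the most similar pattern were sought for these. Over 11 arrays, which share the groups and 1 normalisation, Pearson's r between them was 0.913, and 0.742 after the group means were subtracted. Both genes read low on mutant tamoxifen replicate 2 (8.02 and 8.95), so r after subtraction rests in part on that 1 array. For Ereg the 3 most similar genes were Pcdhb9 (r = 0.978), Phlda1 (0.973) and Fosl1 (0.970), and after subtraction of group means these were 0.956, 0.958 and 0.948. Phlda1 and Fosl1, which encodes the AP-1 protein FRA1, are 2 of the 22 genes of the ERK target list, while Pcdhb9 belongs to the protocadherin β cluster, whose near-identical members can share probes. Pcdhb9 was dim and spanned little, with 4.84 to 5.03 on mutant tamoxifen, 4.78 to 4.81 on control and 4.75 to 4.86 on mutant NaCl arrays. Fosl1 was not called against control (0.32, adjusted p = 0.145) and was called higher against mutant NaCl (0.43, 0.0347). For Hbegf the 3 were Cyp7b1 (0.968), an oxysterol hydroxylase, Ptgs2 (0.965), the inducible cyclooxygenase, and Spry4 (0.965), with 0.861, 0.948 and 0.885 after subtraction.

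Ptgs2 showed the same low array, with 10.78, 9.01, 10.50 and 10.15 on the arrays labelled mutant tamoxifen, 8.98, 8.96 and 8.89 on control arrays, and 8.72, 9.09, 9.24 and 9.21 on mutant NaCl arrays. Phlda1 read 9.53, 8.57, 9.23 and 9.56 on the mutant tamoxifen arrays, 7.92, 8.19 and 8.30 on control arrays, and 7.99, 8.05, 8.41 and 8.02 on mutant NaCl arrays. In both genes, replicate 2 was the lowest of the mutant tamoxifen arrays, as it was for Pcdhb9, Fosl1, Cyp7b1 and Spry4. The r values after subtraction thus rest in part on this array, and they were not computed without it. The likeness was chosen by its size and is a description of these 11 arrays.

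Among the marker lists of cells in the mucosa, those of smooth muscle and neutrophils had the largest shares called. Of all genes tested, 24.6% were called in either direction against control and 23.2% against mutant NaCl. All 12 smooth muscle markers were lower on the arrays labelled mutant tamoxifen in both comparisons (median -0.49 and -0.47), with mean levels of 11.49 to 11.66 beside 12.06 to 12.22 on control and 11.92 to 12.21 on mutant NaCl arrays. Of 10 measured neutrophil markers 9 were higher in both, with mean levels of 7.34 to 7.91 beside 6.73 to 6.92 and 6.75 to 6.83. Stratified squamous markers had 0 of 14 called in either comparison, and their source in the sampled tissue was not tested. Their mean level varied most, from 8.21 to 9.97 on mutant tamoxifen, 6.69 to 10.01 on control and 8.65 to 9.88 on mutant NaCl arrays. Of the 12 measured colonic epithelium markers 3 were higher and 1 lower against control, and 6 were higher and 1 lower against mutant NaCl, with mean levels of 12.40 to 12.53, 12.25 to 12.37 and 12.28 to 12.32. The deposited table has no detection call, so none of these markers could be called absent.

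The part of neutrophils in the differences of the EGF receptor genes was not tested. With the mean of the squamous markers as a covariate, Hbegf (1.69, adjusted p = 0.00827), Egfr (0.68, 0.00124), Tgfa (0.27, 0.0294), Epgn (0.44, 0.0474) and Egf (-0.32, 0.0318) passed against control, and Ereg did not (1.28, 0.0525). Against mutant NaCl the same covariate left Hbegf at 1.55 (0.00353), Ereg at 1.24 (0.0229), Tgfa at 0.21 (0.0299), Epgn at 0.37 (0.0364) and Egfr at 0.50 (0.00114). With the mean of the smooth muscle markers as a covariate, which fully separates the mutant tamoxifen arrays from the others, 0 of the 7 genes passed. Hbegf was then 2.08 (0.412), Ereg 2.72 (0.316) and Egfr 0.95 (0.141) against control, so that the group and the muscle level cannot be told apart in this fit.

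The remaining marker lists are also to be set beside the 24.6% and 23.2% of all genes called in the 2 comparisons. Macrophage and dendritic cell markers had 1 of 12 higher and 3 lower against control, and 1 of each against mutant NaCl. Fibroblast markers had 1 of 10 higher against control, and 4 higher and 3 lower against mutant NaCl. Mast cell and basophil markers had 3 of 10 higher and 1 lower, and 2 higher and 1 lower. Lymphocyte markers had 0 of 11 called against control and 1 lower against mutant NaCl. The mean level of these 4 lists overlapped between mutant tamoxifen and at least 1 of the other groups.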

How the data were processed

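RNA of the rectal mucosa of 11 mice, 1 array each, was measured on Affymetrix Mouse Gene 1.0 ST arrays. The authors deposited log2 values, made with RMA (background correction, quantile normalisation and probe summary) in Expression Console, version 1.1 in the series' design text, after image processing with Command Console version 2.0. Partek stands in the submitters' processing notes without a role. Genome build: not given in the sources used here, nor are the authors' own tests. RMA compresses the differences of dim genes, and the number of arrays limits the precision.

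Of 35556 transcript clusters, 23410 were in the platform annotation, 21797 with 1 symbol and 1613 with several, and 12146 were unnamed. A RefSeq gene table updated 2 symbols, and 21 had no match. The cluster with the highest mean was used for 1001 genes with several, which gave 19944 genes. Groups followed genotype and treatment in the labels, and replicate numbers are names given in accession order. limma 3.58.1 in R 4.3.3 was fitted to all 11 arrays with a term for sex and a variance trend. Two-sided p-values were adjusted by Benjamini-Hochberg across the 19944 genes, and 0.05 was the threshold. Folds are 2 to the power of the log2 difference. Each array is 1 mouse. A p-value sets a difference between group means against the spread between mice. limma estimates that spread from all 11 arrays and the variance trend over genes.

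The set of genes, the pathway and marker lists and the tests were chosen with earlier results of these data known. Named were all measured genes of the set, at most 4 genes per pathway list by smallest p against control tamoxifen, the 3 genes most correlated over the arrays with each gene of the set spanning at least 1, and Itga6. The correlated genes exclude predicted and RIKEN genes, olfactory, vomeronasal and T cell receptors, immunoglobulins, small RNAs and sex-linked genes. Alternatives were each array left out, female arrays alone, no sex term, only the arrays compared, gene filters, rescaling, other variance models, array weights, all transcript clusters and marker covariates. The fit was also run on simulated data with noise drawn independently for each gene. That run checks the working of the code and not the results given here.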

Additional observations from a re-analysis of the deposited data

Results flagged for a closer look

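Among the named and measured genes, 56 groups of 4 arrays were searched for an array far from the others, taken as a gap to the nearest array, over the group's range, above Dixon's 95% critical value. Chance marks about 5% of such groups, and 3 were marked over 28 genes, all in mutant NaCl and none in the EGF receptor or its ligands. Erbb2 read 10.75 on mutant NaCl replicate 3, where the nearest array read 10.90, a gap of 0.875 of the range. Nras read 9.87 on the same array, above the nearest at 9.67, a gap of 0.931 of the range. Lrig3 read 10.33 on mutant NaCl replicate 1, below the nearest at 10.45, a gap of 0.874 of the range.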

How the results depend on the processing

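No paired analysis was possible because the labels give no replicate numbers shared between groups. Of 495 differences of the 7 measured genes under other settings, 445 kept their side of the threshold, 50 lost a call and 0 gained one. The sign changed in 13, of which 0 were called in the reported fit. The call count against control tamoxifen was 4915, and 2517 to 4685 with single arrays left out, lowest without mutant tamoxifen replicate 3 and next without control replicate 2 (3031). It was 1385 among female arrays alone and 10 with the smooth muscle covariate, and against mutant NaCl that covariate left 8 of 4634, beside 3150 to 4924 with single arrays left out. Between mutant NaCl and control it was 0, then 3 with only the arrays compared, 1 each without the lowest 50% of genes, with median centring, a second quantile normalisation, array weights, the squamous covariate and the muscle covariate, and 0 to 3 with single arrays left out. Of the 5 genes of the set higher against control, 1 was higher among female arrays, 3 with only the arrays compared, 0 with the muscle covariate and 2 to 5 with single arrays left out. Egf was the 1 lower gene, with 0 lower among female arrays and with the muscle covariate, and 0 to 1 with single arrays left out. Of the 5 higher against mutant NaCl, 3 were higher among female arrays, 0 with the muscle covariate and 2 to 5 with single arrays left out. The muscle covariate reversed Adam17 (-0.057 and -0.082) and Timp3 (0.38 and 0.25) against control and mutant NaCl, neither called there. Fewer arrays were fitted among females and with arrays left out; otherwise the cause was not tested. Epgn had no value without the lowest 25% of genes, and Epgn and Egf none without the lowest 50%. Plain median centring and a second quantile normalisation kept every call of the set.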

Other observations

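Epgn, Ereg, Areg and Btc follow each other in this order on chromosome 5 in RefSeq, with CXC chemokine genes on one side, and Areg is not analysed here. These neighbours were chosen after their values were seen. Cxcl5, a chemokine that attracts neutrophils, was higher by 2.08 on the arrays labelled mutant tamoxifen against control (adjusted p = 0.000113 with limma) and by 1.93 against mutant NaCl. Cxcl2, another such chemokine, was higher by 1.64 (adjusted p = 0.0136) and by 1.92 (0.00313), and against control it did not pass without control replicate 2 (1.54, 0.0847), with only the arrays compared (1.59, 0.0542) or among female arrays alone (1.82, 0.132). Mthfd2l, a mitochondrial folate enzyme gene beside Epgn, was higher by 0.38 (0.00621) and 0.27 (0.0148), and passed in neither comparison among female arrays alone (0.39, 0.111 and 0.30, 0.0622). Cxcl1, between Cxcl5 and Cxcl2, differed by 0.02 and 0.13 and was not called in either comparison. Ppbp, beside Cxcl5, was higher by 2.59 against control (0.0359) but not called against mutant NaCl (1.00, 0.349). Its control arrays lay far apart, at 6.38, 10.37 and 7.54, and among female arrays alone the difference from control was 0.84. Parm1, the next tested gene past Btc, was lower by 0.16 in both comparisons (0.0343 and 0.0175). Against control the call was lost in 10 of 23 other settings for Ppbp and in 9 of 23 for Parm1. The neighbourhood thus held higher, lower and uncalled genes side by side.

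Plaur, the receptor of urokinase and a gene of the ERK target list outside the naming rule, was also chosen after its values were seen. It was higher by 1.42 on the log2 scale against control (adjusted p = 0.00420 with limma). Against mutant NaCl it was 2.84-fold higher, a ratio that is not on the log2 scale. Plaur read 8.74 to 10.19 on mutant tamoxifen, 7.97 to 8.19 on control and 7.90 to 8.11 on mutant NaCl arrays.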
